A study of Mus musculus with 10 samples.

Results

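The Zfp loci are the autosomal protein-coding genes of the mouse whose symbol is Zfp followed by digits alone, each taken with 1 kb of flank beyond both ends. The rule gave 359 genes, with 1 further gene of that naming not analysed here. Methylation was read in 1 kb tiles holding at least 3 CpGs, and 1359 of the 165978 tiles in the deposited table touched a Zfp locus. Of the 359 genes, 317 had at least 1 tile and 42 had none, so those 42 carry no values below. A tile that overlapped the 1 kb on either side of a gene boundary was an end tile (494 tiles, 273 genes). Its CpGs can therefore lie more than 1 kb from that boundary. Any other tile of the gene was a body tile (865 tiles, 217 genes).

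The libraries came from testis of F2 mice and were made by reduced representation bisulfite sequencing, which cuts genomic DNA at CCGG sites and so samples CpG-rich stretches. Bisulfite treatment turns unmethylated cytosine into a base read as T, so the share of reads that keep a C is the methylation level. There were 5 libraries of the arsenic group and 5 of the control group, and the labels give no dose, no route, no age, no strain and no statement of which ancestor was treated. The labels do not say that the libraries came from separate animals, so p-values cover the spread between libraries, which may be technical. Whole testis mixes germ cells of several stages with somatic cells, so a change in the share of cells and a change within cells cannot be told apart.

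The tissue label was checked at imprinted sites. The ends of Nnat, Peg10, Peg13 and Nap1l5, which carry methylation on the maternal copy only in somatic tissue, averaged between 9.65% and 13.3% in arsenic libraries and between 7.08% and 15.1% in control libraries. The paternally methylated region upstream of H19 averaged 95.5% in arsenic libraries and 95.1% in control libraries.

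Zinc finger proteins of the C2H2 class read DNA through repeated fingers, each of which contacts a few bases. Many of them also carry a KRAB domain, which recruits the corepressor TRIM28 and so brings repressive chromatin and DNA methylation to retroelements and imprinted regions. Their genes have multiplied by tandem duplication, and many lie side by side in clusters, with a large share of them on mouse chromosome 7. Some members of the Zfp naming are of other classes, such as Zfp36, a CCCH protein that binds AU-rich messenger RNAs and hastens their decay.

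Clusters were runs of at least 3 Zfp genes with gaps of at most 100 kb. There were 29 clusters of 3 to 15 genes holding 166 genes, 145 of them measured. A further 42 genes stood in pairs, and 151 stood alone, of which 138 were measured. Chromosome 7 held 90 of the Zfp genes and 10 of the clusters. Coordinates are those of mm10.

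The 5 promoter sequences are shown because their levels run from 0.207% (Zfp667) to 23.3% (Zfp977) over the 10 libraries, and because 2 of them (Zfp977 and Zfp940) hold the CpGs of the end tiles with the smallest p in either direction. Each runs 5′ to 3′ on the coding strand from 250 bases before to 50 bases after the start listed by RefSeq for GRCm38.p6 (mm10), and capitals mark the CpGs that had reads in the libraries. All 1559 covered CpGs in Zfp promoters fell on a CG of the RefSeq sequence.
Zfp977, chr7:42592496-42592795, minus strand: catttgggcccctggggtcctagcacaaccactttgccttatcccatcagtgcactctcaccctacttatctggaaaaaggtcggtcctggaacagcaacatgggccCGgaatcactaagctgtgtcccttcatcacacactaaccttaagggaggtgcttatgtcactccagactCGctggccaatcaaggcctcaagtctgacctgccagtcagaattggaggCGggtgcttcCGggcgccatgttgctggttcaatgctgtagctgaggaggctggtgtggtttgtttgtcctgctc
Zfp345, chr2:150485014-150485313, minus strand: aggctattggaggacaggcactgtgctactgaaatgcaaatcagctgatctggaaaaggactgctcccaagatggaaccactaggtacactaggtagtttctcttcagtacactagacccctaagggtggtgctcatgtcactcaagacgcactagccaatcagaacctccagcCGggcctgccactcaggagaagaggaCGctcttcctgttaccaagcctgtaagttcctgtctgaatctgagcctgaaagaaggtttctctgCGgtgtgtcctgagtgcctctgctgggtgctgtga
Zfp940, chr7:29853599-29853898, minus strand: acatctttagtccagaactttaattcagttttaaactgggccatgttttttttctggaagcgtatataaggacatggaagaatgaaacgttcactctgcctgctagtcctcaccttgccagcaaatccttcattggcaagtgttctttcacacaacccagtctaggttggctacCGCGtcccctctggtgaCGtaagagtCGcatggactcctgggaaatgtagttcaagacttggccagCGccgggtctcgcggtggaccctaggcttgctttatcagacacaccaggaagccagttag
Zfp667, chr7:6286330-6286629, plus strand: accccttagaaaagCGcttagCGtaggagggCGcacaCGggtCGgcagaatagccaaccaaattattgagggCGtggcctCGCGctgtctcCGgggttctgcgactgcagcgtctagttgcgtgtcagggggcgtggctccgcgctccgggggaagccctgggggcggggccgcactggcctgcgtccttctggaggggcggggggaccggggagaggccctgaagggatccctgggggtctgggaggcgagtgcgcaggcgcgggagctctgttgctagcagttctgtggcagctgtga
Zfp445, chr9:122865957-122866256, minus strand: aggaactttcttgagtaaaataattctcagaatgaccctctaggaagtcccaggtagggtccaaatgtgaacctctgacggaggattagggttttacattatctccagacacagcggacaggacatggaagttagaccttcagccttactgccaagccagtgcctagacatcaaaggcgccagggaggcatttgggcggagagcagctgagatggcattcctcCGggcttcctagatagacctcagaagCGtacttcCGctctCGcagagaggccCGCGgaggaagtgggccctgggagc
The Zfp977 promoter holds 6 CpGs and that of Zfp345 holds 4, and they were the 2 most methylated of the 156 Zfp promoters with at least 3 covered CpGs. Zfp345 averaged 13.4% ± 4.80 in arsenic libraries and 12.4% ± 6.51 in control libraries (SD, n = 5 each). The promoter of Zfp667, a GC-rich one with 25 CpGs, averaged 0.125% ± 0.172 in arsenic libraries and 0.288% ± 0.268 in control libraries (SD, n = 5 each). That of Zfp445, whose protein keeps methylation at imprinted regions together with Zfp57, averaged 0.854% ± 1.10 in arsenic libraries and 0.641% ± 0.898 in control libraries (SD, n = 5 each). Zfp345 and Zfp445 were picked for display after their values were seen.

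Across the 156 promoters, 154 averaged under 10% over the 10 libraries and the other 2 were the Zfp977 and Zfp345 promoters just named. The median promoter level was 2.10%, against 2.13% over the 6953 promoters of all genes with as many covered CpGs. The promoters under 10% held a median of 17 CpGs. Of 362 promoters of 300 Zfp genes, 47.8% held CCAAT on either strand, against 38.1% of 20085 promoters of all genes, and Zfp977, Zfp345 and Zfp940 are among them. GGGCGG stood in 43.9% of Zfp promoters and 47.0% of all promoters, and Zfp667 and Zfp445 hold it. CACGTG stood in 6.63% against 7.89%, and TGACGTCA in 3.59% against 2.3%. Matches were counted on both strands and may overlap one another, and they describe the letters only.

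The ends of Zfp genes were far less methylated than their bodies. End tiles averaged 23.8% ± 0.300 in arsenic libraries and 24.2% ± 0.393 in control libraries, and body tiles averaged 72.0% ± 0.273 in arsenic libraries and 72.2% ± 0.247 in control libraries (SD, n = 5 each). Within libraries, end minus body was −48.1 percentage points and ran from −48.4 to −47.8 over the 10 libraries (two-sided exact sign-flip permutation test over 1024 sign assignments, p = 0.00195, the smallest it can give, adjusted p = 0.00234 over 6 within-library tests). Such a p covers the spread between libraries and not the spread between genes. Of the 494 end tiles, 319 (64.6%) averaged under 10% and 87 (17.6%) averaged 80% or more, so that only 88 lay between. Of the 865 body tiles, 97 (11.2%) averaged under 10% and 573 (66.2%) averaged 80% or more.

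The low ends were mostly starts, with 254 of the 319 end tiles under 10% on the start side. RefSeq gave a strand for 300 of the 359 genes, which split the end tiles into 299 at the start side, 103 at the far end, 4 that touched both and 88 without a strand. The start side is the outer boundary of the gene, and for 262 of the 300 genes a listed start lay within 1 kb of it. Start-side tiles averaged 8.91% ± 0.108 in arsenic libraries and 9.33% ± 0.520 in control libraries, and far-end tiles averaged 64.3% ± 0.862 in arsenic libraries and 64.7% ± 0.357 in control libraries (SD, n = 5 each). Start minus far end was −55.4 points within libraries, from −56.7 to −54.8 (exact sign-flip permutation test, p = 0.00195, adjusted p = 0.00195 over 3 tests added after the reference annotation was seen). The median tile stood at 2.57% on the start side and at 89.5% at the far end.

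**Figure D1:**
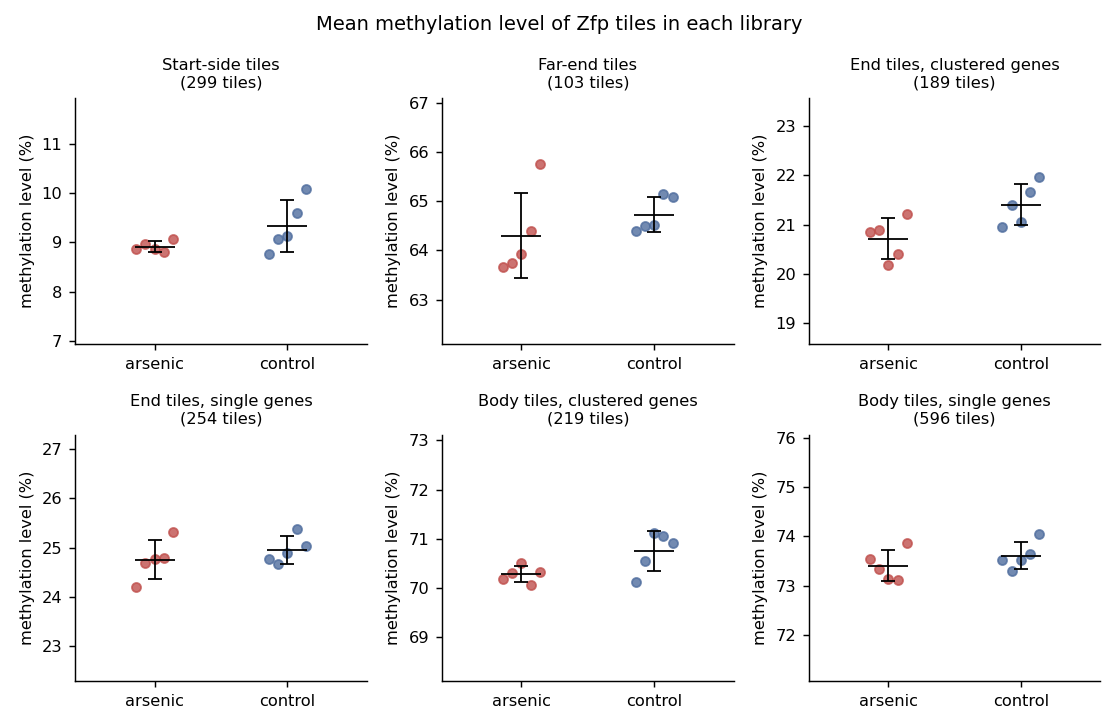
Mean methylation level (%) of Zfp tiles in each library, arsenic left and control right, with 1 point per library and the mean ± SD of 5 libraries in black; every panel spans 5 percentage points but starts at its own level. The groups overlap in every panel, and start-side tiles (8.91% in arsenic, 9.33% in control) lie far below far-end tiles (64.3% in arsenic, 64.7% in control).

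On the start side, 10 tiles had levels of 80% or more. At Zfp652, a gene for a transcriptional repressor, the start-side tile chr11:95749001-95750000 with 14 CpGs averaged 93.3% ± 1.78 in arsenic libraries and 94.2% ± 0.982 in control libraries (SD, n = 5 each), and its centre lay 434 bp from the listed start. The other 9 belonged to Zfp689, Zfp142, Zfp771 (2 tiles), Zfp408, Zfp551, Zfp719, Zfp260 and Zfp13, averaged from 83.3% to 95.4% across both groups, and lay with their centres between 990 and 3025 bp from a listed start. Of these 10 tiles, those of Zfp142, Zfp408 and Zfp13 also touched the end of another protein-coding gene. None of the 10 passed an unadjusted p of 0.05, with the smallest at 0.151 for Zfp142.

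At the far end, 12 tiles were low instead, at under 10%. They included 3 tiles of Zfp503, a regulator of striatal development, which carried 14 to 21 CpGs. The other 9 belonged to Zfp628 and Zfp580 (2 tiles each) and to Zfp36, Zfp653, Zfp771, Zfp174 and Zfp879. The Zfp771 tile was the densest, with 64 CpGs, and averaged 1.73% ± 1.97 in arsenic libraries and 2.59% ± 2.98 in control libraries (SD, n = 5 each). Of these 12 tiles, those of Zfp580, Zfp174 and Zfp879 also touched the end of another protein-coding gene. The Zfp174 tile also holds the listed promoter of Zfp597.

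Single CpGs around the listed starts gave the same picture at finer scale. In the first 250 bp downstream, 1248 CpGs of 134 Zfp genes averaged 4.10% ± 0.314 in arsenic libraries and 4.37% ± 0.794 in control libraries (SD, n = 5 each). The same window of 6289 other genes averaged 7.99% ± 0.184 in arsenic libraries and 8.44% ± 0.674 in control libraries. By 1250 to 1000 bp upstream the Zfp level was 51.3% ± 0.921 in arsenic libraries and 52.2% ± 0.760 in control libraries. Around the far end no bin fell nearly as low, the lowest being 46.4% over the 10 libraries. The 250 bp before it were the highest bin. They averaged 74.0% ± 1.11 in arsenic libraries and 74.3% ± 0.718 in control libraries, from 75 CpGs of 22 genes. Between 500 and 750 bp beyond the far end the level was 47.0% ± 0.926 in arsenic libraries and 47.8% ± 3.18 in control libraries (49 CpGs of 16 genes).

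**Figure D2:**
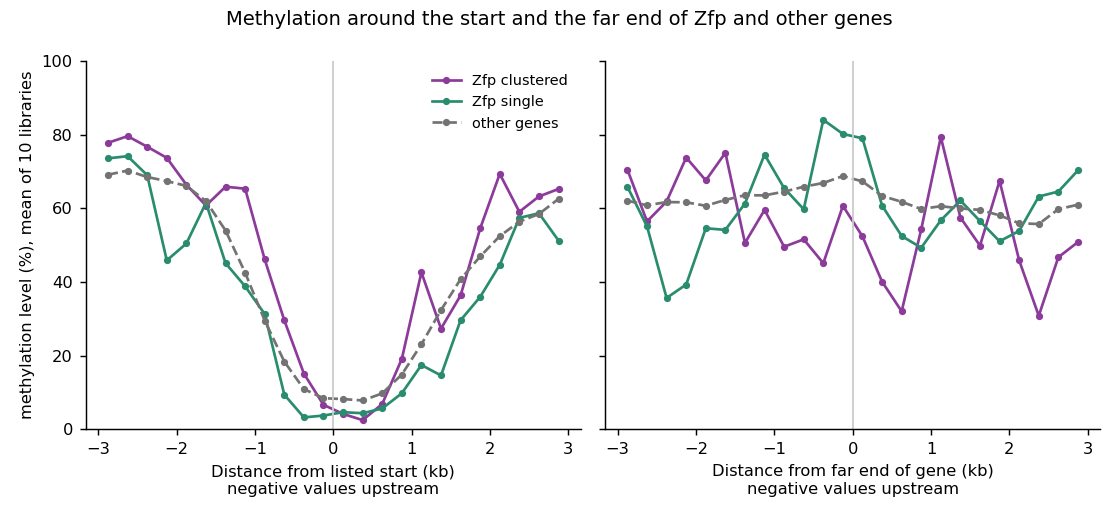
Methylation level (%, mean of 10 libraries) in 250 bp bins against distance (kb) from the listed start (left) and from the far end of the gene (right), for clustered Zfp genes, single Zfp genes and all other genes. Clustered Zfp genes regain methylation sooner upstream of the start, at 29.6% against 9.40% in single Zfp genes between 750 and 500 bp; Zfp bins at the far end rest on only 3 to 17 genes and scatter accordingly.

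Clustered and single Zfp genes differed in several bins on both sides of the start. Between 750 and 500 bp upstream, clustered genes averaged 29.6% over the 10 libraries (43 CpGs of 13 genes) and single genes 9.40% (103 CpGs of 11 genes). Between 1250 and 1000 bp upstream they averaged 65.3% (30 CpGs of 9 genes) and 38.8% (53 CpGs of 12 genes). Between 1750 and 1500 bp upstream they were close, at 60.8% (17 CpGs of 6 genes) and 61.5% (37 CpGs of 9 genes). In the 250 bp after the start the order was the other way, with 4.18% in clustered genes and 4.64% in single genes. Farther downstream clustered genes were higher again, at 42.6% against 17.5% between 1000 and 1250 bp. Between 2000 and 2250 bp they stood at 69.4% against 44.7%, and between 2250 and 2500 bp at 59.1% against 57.4%. These bins hold few genes and were not tested.

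In tiles, clustered genes had lower ends as a whole but higher starts. Clustered end tiles averaged 20.7% ± 0.416 in arsenic libraries and 21.4% ± 0.417 in control libraries, and single end tiles 24.8% ± 0.398 in arsenic libraries and 24.95% ± 0.277 in control libraries (SD, n = 5 each). Clustered minus single was −3.80 points in end tiles, from −4.59 to −3.08 over the 10 libraries, and −2.99 points in body tiles, from −3.54 to −2.41 (exact sign-flip permutation tests, p = 0.00195 and adjusted p = 0.00234 for both). On the start side alone it was 2.87 points, from 2.25 to 3.70, and at the far end −8.05 points, from −9.04 to −6.72 (exact sign-flip permutation tests, p = 0.00195 and adjusted p = 0.00195 for both).

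The order of clustered and single ends depended on which tiles entered. Of the end tiles with a strand, 122 of the clustered genes were at the start and 36 at the far end, against 147 and 58 of the single genes. The clustered-minus-single difference of end tiles turned to 4.13 points with at least 10 CpGs per tile and to 1.69 points when each cytosine weighed the same, and the far-end difference turned to 3.01 points without tiles near the end of another gene. The body difference turned to 2.97 points where each cytosine needed at least 20 reads, so no order between clustered and single genes held for ends, far ends or bodies under every setting. The start-side difference stayed between 2.13 and 3.89 points over its 15 alternatives. Start-side and far-end tiles were not rerun at other coverage, CpG numbers, end widths or cluster gaps. The settings of 10 CpGs and 20 reads that turned ends and bodies were therefore not tried on starts.

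The gap between end and body was also set between the arrangements. End minus body was 0.810 points wider in clustered than in single genes (difference −0.810, lower in 8 of 10 libraries, exact sign-flip permutation test, p = 0.00781, adjusted p = 0.00781). It turned positive under 5 settings, 8.46 points with at least 10 CpGs per tile being the farthest, and was −0.0935 points without tiles near another gene's end (exact permutation p = 0.641). Without Zfp536, Zfp423 and Zfp469, the 3 genes with the most body tiles (146 of 865), it was 0.570 points.

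The number of CpGs in a tile went with its level. End tiles of Zfp genes averaged 45.1% over the 10 libraries at 3 to 4 CpGs (85 tiles), 34.6% at 5 to 9 (148 tiles), 14.4% at 10 to 19 (154 tiles), 6.98% at 20 to 39 (90 tiles) and 3.15% at 40 or more (17 tiles). Body tiles averaged 81.6% at 3 to 4 CpGs (303 tiles), 76.9% at 5 to 9 (354 tiles), 59.6% at 10 to 19 (142 tiles), 31.0% at 20 to 39 (58 tiles) and 16.5% at 40 or more (8 tiles). Clustered ends were below single ends by 13.6 points at 3 to 4 CpGs (difference −13.6) and by 18.6 points at 5 to 9 (difference −18.6), but above them by 3.81 points at 10 to 19. In body tiles with under 20 CpGs, the clustered and single means lay within 0.720 points of each other. In denser body tiles clustered minus single was −7.56 points at 20 to 39 CpGs (19 and 37 tiles). At 40 or more CpGs it was −7.73 points (3 tiles in each).

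**Figure D3:**
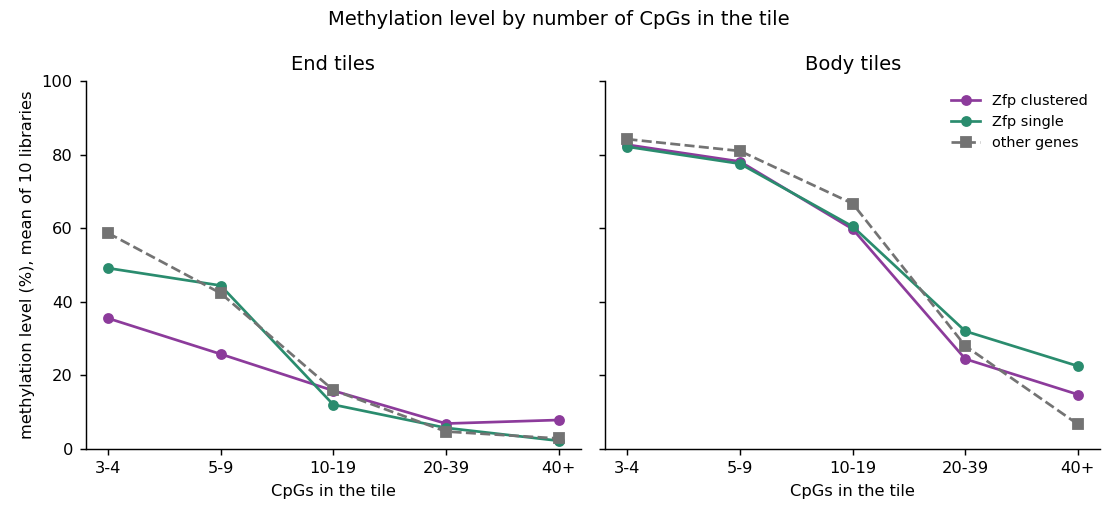
Methylation level (%, mean of 10 libraries) of end tiles (left) and body tiles (right) by number of CpGs in the tile, for clustered Zfp genes, single Zfp genes and other genes. Levels fall with CpG number in all 3 sets except for the last step of clustered Zfp ends, from 6.86% at 20 to 39 CpGs (27 tiles) to 7.82% at 40 or more (3 tiles), and clustered Zfp ends lie lowest at 3 to 9 CpGs, with 35.5% at 3 to 4 CpGs against 49.1% in single Zfp genes and 58.7% in other genes.

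Against all other autosomal protein-coding genes, Zfp loci were lower in tile means. Zfp minus other was −4.25 points in end tiles, from −4.54 to −4.01 over the 10 libraries, and −6.29 points in body tiles, from −6.73 to −5.88 (exact sign-flip permutation tests, p = 0.00195 and adjusted p = 0.00234 for both). Other genes had 25422 end tiles, which averaged 28.1% ± 0.141 in arsenic libraries and 28.4% ± 0.534 in control libraries, and 69364 body tiles, which averaged 78.4% ± 0.239 in arsenic libraries and 78.4% ± 0.404 in control libraries (SD, n = 5 each). The end difference was −13.6 points at 3 to 4 CpGs and 2.29 points at 20 to 39 CpGs, and it turned to 0.803 points with at least 10 CpGs per tile and to 0.682 points with equal weight per cytosine. The body difference kept its sign in all 19 alternatives, from −9.64 to −5.29 points. By CpG number it was −2.55 points at 3 to 4 CpGs, −4.05 at 5 to 9 and −7.03 at 10 to 19. Median body tiles stood at 92.2% in Zfp and 91.6% in other genes at 3 to 4 CpGs, 91.7% and 91.2% at 5 to 9, and 83.7% and 87.4% at 10 to 19. The order of the means turned in denser tiles, with 3.03 points in the 58 Zfp tiles of 20 to 39 CpGs and 9.83 points in the 8 Zfp tiles with 40 or more.

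Those 8 CpG-dense body tiles belonged to 7 genes. The tile of Zfp629 averaged 62.5% ± 6.10 in arsenic libraries and 62.1% ± 6.16 in control libraries (SD, n = 5 each). The 2 tiles of Zfp865 and the tile of Zfp13 averaged between 15.7% and 20.8% in both groups. The tiles of Zfp316, Zfp503, Zfp428 and Zfp821 averaged between 1.62% and 8.80%. The Zfp821 tile lay with its centre 7 bp from a listed start inside the gene, and that of Zfp428 414 bp from one.

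Body tiles near a start were low more often than others. Among the 578 body tiles with a strand, 27 of the 62 within 3 kb of the start side averaged under 10% (43.5%), against 46 of the 516 farther away (8.91%), so that most of the 73 low body tiles lay farther off. This difference was not tested. The 5 body tiles with the lowest levels were of Zfp777, Zfp827, Zfp521, Zfp59 and Zfp13, with means from 0.547% to 1.21% in arsenic libraries and from 0.480% to 0.699% in control libraries. The Zfp59 tile holds the promoter of a start listed inside that gene. At the other extreme, the 5 most methylated end tiles were all far ends, 1 each of Zfp830, Zfp747 and Zfp3 and 2 of Zfp507, with means from 96.3% to 97.6% in arsenic libraries and from 96.4% to 97.6% in control libraries. The lowest end tiles with at least 10 CpGs were the starts of Zfp667 and Zfp523 and the far end of Zfp879, with means from 0.512% to 0.859% in arsenic libraries and from 0.0649% to 0.292% in control libraries. Libraries without a methylated read in the tile of Zfp523 had 203 to 492 counts there, summed over 13 cytosines. These would allow a level of up to 0.610% to 1.48% by counting error if each count were a separate read. Cytosines on the same fragment share reads, so the limits are higher.

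The clusters differed widely in both ends and bodies. The 28 clusters with end tiles had end means from 2.07% to 44.2% with a median of 17.1%, and the 26 with body tiles had body means from 32.4% to 95.7% with a median of 76.3%. Ends were below bodies in all 25 clusters with both. The lowest ends were in the Zfp738-Zfp273 cluster on chromosome 13, at 2.51% in arsenic libraries and 1.63% in control libraries, from 3 tiles. The highest were in the Zfp553-Zfp689 cluster of 7 genes on chromosome 7, at 43.8% in arsenic libraries and 44.7% in control libraries, from 16 tiles. The largest cluster, Zfp84-Zfp146 with 15 genes, had ends at 26.3% in both groups and bodies at 83.5% in arsenic libraries and 84.1% in control libraries.

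**Figure D4:**
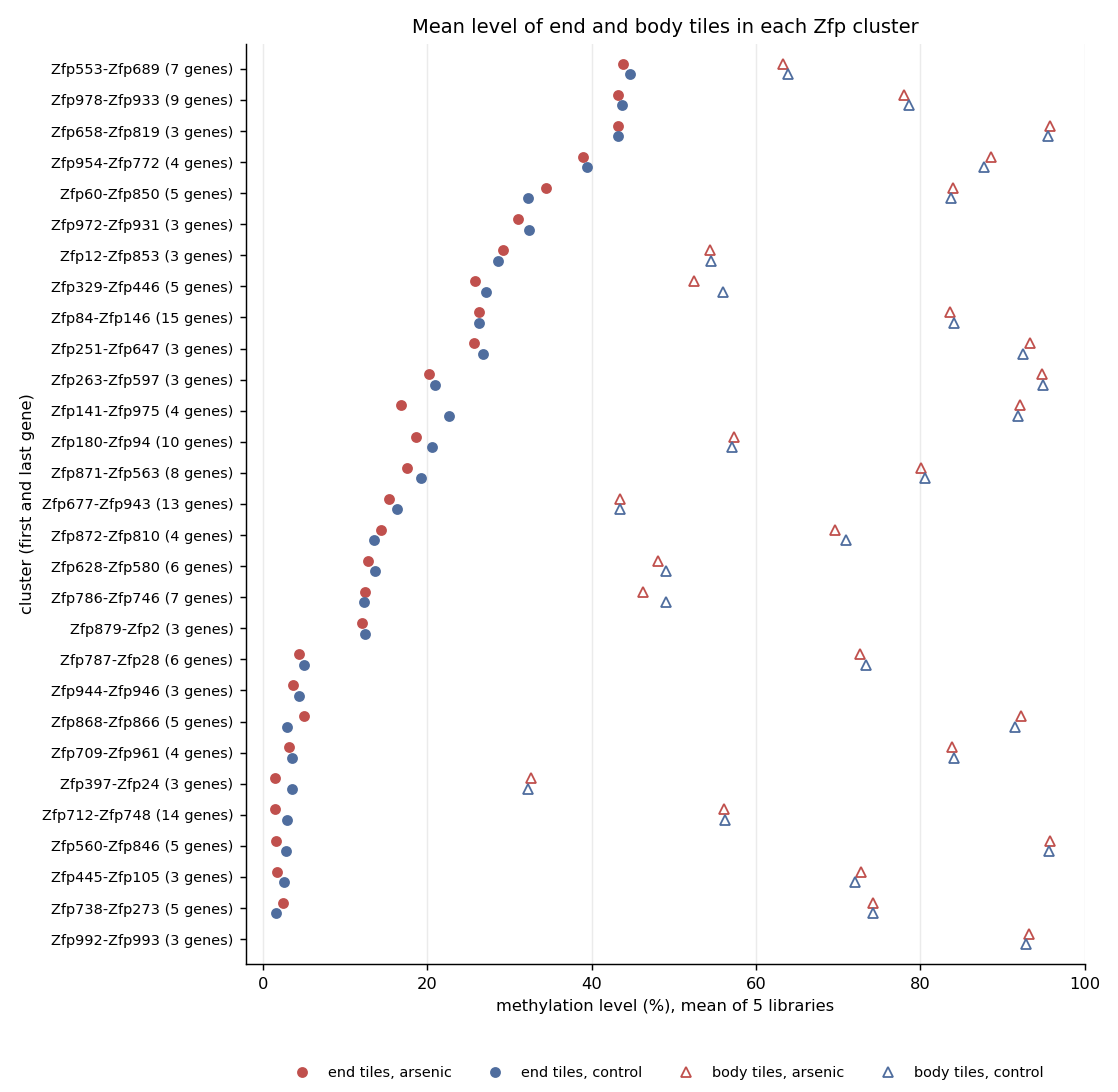
Mean methylation level (%) of end tiles (filled circles) and body tiles (open triangles) in each of the 29 Zfp clusters, arsenic above control within each row, each point the mean of 5 libraries. End means of the groups lie between 1.46% (Zfp397-Zfp24, arsenic) and 44.7% (Zfp553-Zfp689, control), and ends lie below the body mean in all 25 clusters that have both kinds of tile.

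Between the groups, end means of the clusters were lower in arsenic in 21 and higher in 7, with differences from −5.86 to 2.27 points, and body means were lower in 14 and higher in 12, with differences from −3.46 to 0.937 points. For single tiles the background was 55.3% lower in arsenic among end tiles of other genes and 49.9% among their body tiles. In 3 clusters the end means of the groups did not overlap, and no body means were apart. The share without overlap was 0.832% of all single tiles, which is no background for means over several tiles. No share for such means was computed. The Zfp141-Zfp975 cluster, 4 genes on chromosome 7, averaged 16.9% in arsenic libraries and 22.7% in control libraries over 3 end tiles, 1 of them the Zfp977 start. The Zfp397-Zfp24 cluster on chromosome 18 averaged 1.46% in arsenic libraries and 3.63% in control libraries over 3 end tiles, 1 of them the Zfp35 end tile. The Zfp628-Zfp580 cluster on chromosome 7 averaged 12.8% in arsenic libraries and 13.7% in control libraries. No test was made of single clusters.

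Over all Zfp tiles, no mean level differed between the groups after adjustment. Arsenic minus control was −0.411 points in end tiles (two-sided exact permutation test over 252 label assignments, p = 0.111, adjusted p = 0.179 over 6 tests) and −0.282 points in body tiles (exact permutation p = 0.119, adjusted p = 0.179). In clustered genes it was −0.697 points in end tiles (exact permutation p = 0.0397, adjusted p = 0.179) and −0.468 points in body tiles (exact permutation p = 0.0635, adjusted p = 0.179). In single genes it was −0.194 points in end tiles and −0.202 points in body tiles (exact permutation p = 0.381 and 0.325, adjusted p = 0.381 for both). The smallest p this design allows is 0.00794.

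In end tiles as a whole, the 2 control libraries with the highest levels were controls 4 and 5. End tiles averaged 23.5% to 24.3% in the arsenic libraries, 24.5% and 24.7% in controls 4 and 5, and 23.8% to 24.1% in controls 1 to 3. End tiles of other genes averaged 27.9% to 28.3% in the arsenic libraries, 28.7% and 29.2% in controls 4 and 5, and 27.9% to 28.2% in controls 1 to 3. The part of these libraries in the end differences was not tested beyond leaving them out. Without controls 4 and 5 the difference was −0.137 points in Zfp end tiles (exact permutation p = 0.536) and −0.429 points in clustered end tiles (exact permutation p = 0.179). Without control 1, whose clustered bodies were at 70.1%, the clustered body difference was −0.625 points (exact permutation p = 0.00794, adjusted p = 0.0476).

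Whether the arrangement or the region changed with the group was tested directly. The end-minus-body gap was −48.2 points in arsenic libraries and −48.0 points in control libraries (difference −0.129, exact permutation p = 0.278, adjusted p = 0.377 over 5 tests). Clustered minus single was −4.05 points in arsenic libraries and −3.55 points in control libraries for end tiles (difference −0.503, exact permutation p = 0.103, adjusted p = 0.317). Zfp minus other genes was −4.27 points in arsenic libraries and −4.22 points in control libraries for end tiles (difference −0.0529, exact permutation p = 0.651, adjusted p = 0.651). The same contrasts in body tiles had adjusted p of 0.377 and 0.317 by the same test.

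Tile by tile, a quasi-binomial logistic model of methylated among all reads was fitted to all 165978 tiles. A call needed 10 points or more of difference together with an adjusted p below 0.05. None of the 1359 Zfp tiles met it, and none of all tiles or of the end and body tiles of other genes (background 0.0%), and the smallest adjusted p was 0.650 among Zfp tiles and 0.506 over the table. At an unadjusted p under 0.05 there were 85 Zfp tiles, 6.25%, against a background of 5.8% over all tiles, 8.41% over end tiles of other genes and 5.29% over body tiles of other genes. In limma on log ratios of methylated to unmethylated reads, 0 Zfp tiles were called and 83 had an unadjusted p under 0.05, while a binomial test that takes reads as replicates called 7.

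Those 85 tiles leaned to lower levels in arsenic at the ends. Of 494 end tiles 33 were lower and 7 higher, which is 6.68% and 1.42%, against backgrounds of 3.34% and 2.47% over all tiles and of 5.5% and 2.91% over end tiles of other genes. In clustered genes 19 of 189 end tiles were lower and 2 higher, while single genes had 12 lower and 4 higher of 254. Of 865 body tiles 25 were lower (2.89%) and 20 higher (2.31%), against backgrounds of 2.71% and 2.58% over body tiles of other genes. Without controls 4 and 5 the end tiles gave 30 lower (6.07%) and 14 higher (2.83%). The backgrounds without them were 4.61% and 3.61% over end tiles of other genes and 2.81% and 2.9% over all tiles. The clustered end tiles then gave 14 lower (7.41%) and 7 higher (3.7%). Leaving out any 1 library gave 27 to 37 lower (5.47% to 7.49%) and 5 to 11 higher (1.01% to 2.23%) among end tiles. End tiles of other genes then had 5.03% to 6.38% lower and 2.59% to 3.44% higher. Over end tiles the median difference was −0.238 points with 280 lower and 214 higher in arsenic, against −0.196 points over end tiles of other genes and −0.0963 points over all tiles.

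In 16 Zfp tiles (1.18%) the groups did not overlap, against a background of 0.832% of all tiles. Of these, 11 (0.809%) were lower and 5 (0.368%) higher in arsenic, against backgrounds of 0.483% and 0.349%. Of the 16, 4 were end tiles, of Zfp977, Zfp35, Zfp512 and Zfp974. The 12 body tiles included those of Zfp30, Zfp521, Zfp462 and Zfp395 described below. The other 8 were lower in Zfp978, Zfp334, Zfp568, Zfp704, Zfp831, Zfp609 and Zfp513 and higher in Zfp407.

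The Zfp977 start had the smallest p of any Zfp tile. In the tile chr7:42592001-42593000, which runs across the start of this clustered gene, the arsenic libraries had 15.6%, 20.4%, 13.9%, 16.3% and 12.4% methylation and the control libraries 32.8%, 34.7%, 34.9%, 28.6% and 23.6%. All 5 arsenic libraries lay below all 5 control libraries. The means were 15.7% ± 3.004 in arsenic libraries and 30.9% ± 4.83 in control libraries (SD, n = 5 each), with an unadjusted p of 0.000132 and an adjusted p of 0.650 over all tiles in the quasi-binomial model. Leaving out any 1 library, controls 4 and 5, or changing coverage or model kept it between −18.4 and −14.1 points.

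That tile rests on 4 CpGs within 129 bp, all inside the Zfp977 promoter printed above. At the CpG 15 bases before the start, the fourth in capitals, the arsenic libraries had from 10.9% to 23.1% and the control libraries from 35.4% to 48.6%. The CpG 25 bases before the start averaged 15.0% ± 4.85 in arsenic libraries and 31.1% ± 9.92 in control libraries, and the one 74 bases before it averaged 13.0% ± 5.27 in arsenic libraries and 20.9% ± 8.99 in control libraries (SD, n = 5 each). The farthest, 143 bases before the start, averaged 22.2% ± 12.04 in arsenic libraries and 36.2% ± 5.73 in control libraries (SD, n = 5 each). Only the CpG nearest the start separated the groups without overlap, and CpGs on the same fragment share reads.

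Zfp597 and Zfp35 were the next end tiles that were lower in arsenic. At the outer boundary of Zfp597 (chr16:3884001-3885000, 16 CpGs), away from the start that RefSeq lists, the arsenic libraries had 0.452%, 0.316%, 0.826%, 0% and 0.986% and the control libraries 0.803%, 4.76%, 4.89%, 6.62% and 8.19%. Control 1 lay within the arsenic range and the other 4 controls above it. The means were 0.516% ± 0.396 in arsenic libraries and 5.05% ± 2.76 in control libraries (SD, n = 5 each), and the adjusted p was 0.771 in the quasi-binomial model. The arsenic library at 0% had 835 counts, summed over 28 cytosines within 162 bp. These would allow up to 0.359% by counting error if each count were a separate read. Cytosines on the same fragment share reads, so the limit is higher. Without controls 4 and 5 the read-weighted difference was −2.80 points in place of −4.40.

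Zfp35 is expressed in meiotic germ cells of the testis. Its end tile on chromosome 18 (19 CpGs) had 4.40%, 3.16%, 3.11%, 2.503% and 2.998% in arsenic libraries and 4.78%, 7.74%, 6.23%, 6.45% and 7.58% in control libraries. The groups did not overlap. The adjusted p was 0.787 in the quasi-binomial model.

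Higher end tiles in arsenic were those of Zfp940, Zfp512 and Zfp637. At the Zfp940 start (chr7:29853001-29854000), the arsenic libraries had 13.2%, 11.2%, 18.02%, 6.41% and 0% and the control libraries 3.61%, 0%, 3.14%, 0% and 0%. Arsenic 5 lay among the controls and the other 4 above them, and the adjusted p was 0.808 in the quasi-binomial model. All 5 CpGs lie within 67 bp, inside the promoter printed above and rest on 13 to 33 reads per cytosine. In arsenic 1, which varied most among them, 1 CpG stood at 3.85% and the other 4 at 15.4% to 16.0%. The zeros would allow up to 3.30% to 4.35% by counting error if the counts of all 5 CpGs were separate reads. CpGs on the same fragment share reads, so the limits are higher.

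At Zfp512 (chr5:31453001-31454000, 3 CpGs), the arsenic libraries had 18.2%, 14.6%, 13.5%, 16.0% and 12.3% and the control libraries 4.84%, 9.09%, 11.1%, 10.3% and 4.50%. The groups did not overlap, and the adjusted p was 0.808 in the quasi-binomial model. The start tile of Zfp637 averaged 2.46% ± 2.49 in arsenic libraries and 0.422% ± 0.280 in control libraries (SD, n = 5 each), with arsenic 1 and 5 at 4.31% and 5.90% and the other 8 libraries under 1%. Without arsenic 5 its difference was 1.20 points in place of 2.01.

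In gene bodies, Zfp30 had the smallest p. This KRAB zinc finger gene, known in the mouse as a regulator of neutrophil recruitment to the airways, had 79.0%, 76.5%, 75.1%, 75.6% and 74.3% in arsenic libraries and 80.5%, 82.7%, 82.2%, 84.7% and 84.8% in control libraries, over 12 CpGs at chr7:29791001-29792000. The groups did not overlap and the adjusted p was 0.755 in the quasi-binomial model. A body tile of Zfp521, a regulator of blood and neural progenitors, had 93.9% ± 1.81 in arsenic libraries and 97.4% ± 0.596 in control libraries without overlap (SD, n = 5 each, adjusted p = 0.808, quasi-binomial model). A CpG-dense body tile of Zfp827 (34 CpGs) had at most 0.486% in arsenic libraries, while controls 1, 3 and 5 had 3.23%, 8.29% and 12.6% and controls 2 and 4 had 0.790% and 0.135%. Without control 5 its difference was −2.81 points in place of −4.49.

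Body tiles higher in arsenic were of Zfp462, Zfp661 and Zfp395. Zfp462, a gene linked to the upkeep of cell identity, had 78.7%, 75.9%, 77.0%, 76.3% and 73.2% in arsenic libraries and 70.1%, 66.1%, 66.1%, 63.0% and 69.8% in control libraries over 5 CpGs at chr4:55078001-55079000. Every arsenic library lay above every control library, with an adjusted p of 0.808 in the quasi-binomial model. Zfp395 had 89.9% ± 4.42 in arsenic libraries and 79.8% ± 2.24 in control libraries without overlap (SD, n = 5 each), over 3 CpGs within 31 bp. Zfp661 averaged 1.997% ± 0.898 in arsenic libraries and 0.514% ± 0.367 in control libraries (SD, n = 5 each), and arsenic 5, at 0.963%, lay below control 5, at 1.05%. The Zfp661 tile holds the promoter of a start listed inside that gene.

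**Figure D5:**
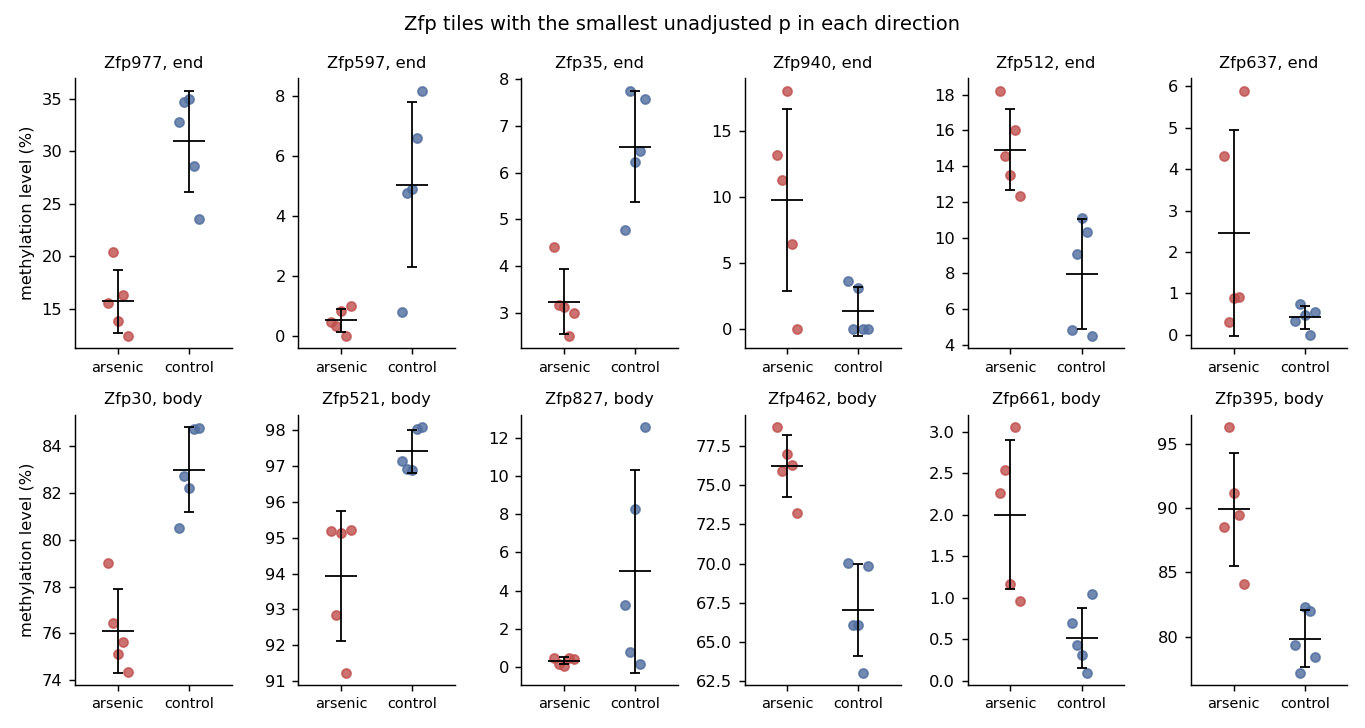
Methylation level (%) of the 6 end tiles (top) and 6 body tiles (bottom) with the smallest unadjusted p in each direction, arsenic left and control right in each panel, with 1 point per library and the mean ± SD of 5 libraries in black; each panel has its own scale, which does not start at 0 in most. The groups do not overlap for Zfp977, Zfp35, Zfp512, Zfp30, Zfp521, Zfp462 and Zfp395.

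Genes that silence imprints and retroelements had no tile past an unadjusted p of 0.05, against a background of 5.8% over all tiles. The list held 7 genes, all measured, with 25 tiles. In arsenic 16 were lower (64.0%) and 9 higher, at a median difference of −0.591 points, against 51.9% lower over all tiles. Zfp57, which binds imprinted regions on the methylated copy and keeps them methylated, had a start at 0.731% in arsenic libraries and 0.847% in control libraries and a far end at 73.8% in arsenic libraries and 76.7% in control libraries. The end tiles of Zfp809, which silences murine leukemia viruses in stem cells, averaged 4.04% ± 1.496 in arsenic libraries and 5.86% ± 2.69 in control libraries (SD, n = 5 each). Zfp568, which represses a placental promoter of Igf2, had ends at 6.48% ± 9.16 in arsenic libraries, where arsenic 2 stood at 22.8%, and at 3.78% ± 1.75 in control libraries (SD, n = 5 each). Zfp932 and Zfp819 had starts at 1.80% and 0.775% in arsenic libraries and 3.33% and 0.305% in control libraries. Zfp708, whose protein binds a retroelement family, had body tiles alone, at 46.5% ± 3.29 in arsenic libraries and 44.9% ± 2.22 in control libraries (SD, n = 5 each).

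Genes with roles in male germ cells had 13 tiles, all 5 genes being measured. The Zfp35 end tile was the only one with an unadjusted p under 0.05, which is 7.69% of them against a background of 5.8% over all tiles. In arsenic 8 tiles were lower (61.5%) and 5 higher at a median difference of −0.357 points, against 51.9% lower over all tiles. Zfp37 had its start at 1.34% ± 0.755 in arsenic libraries and 1.33% ± 1.03 in control libraries and its body at 92.3% ± 2.65 in arsenic libraries and 94.0% ± 3.23 in control libraries (SD, n = 5 each). Zfp318, an androgen receptor cofactor, had starts at 3.30% ± 3.97 in arsenic libraries and 1.67% ± 2.17 in control libraries (SD, n = 5 each). Zfp541, needed for meiotic progression, had 1 body tile, at 90.4% ± 3.07 in arsenic libraries and 89.9% ± 5.69 in control libraries (SD, n = 5 each). Zfp628, which acts in spermiogenesis, had 3 far-end tiles at 11.9% ± 1.92 in arsenic libraries and 12.4% ± 0.960 in control libraries (SD, n = 5 each).

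The regulators outside clusters had 268 tiles in 18 genes, of which 15 (5.597%) had an unadjusted p under 0.05, against a background of 5.8% over all tiles, and none was called. The median difference was 0.104 points, with 131 tiles lower (48.9%) and 137 higher in arsenic, against 51.9% lower over all tiles. Zfp503 had ends at 3.999% ± 1.11 in arsenic libraries and 5.84% ± 2.43 in control libraries and bodies at 1.96% ± 1.42 in arsenic libraries and 2.40% ± 1.13 in control libraries (SD, n = 5 each), so the gene was low from one end to the other. Its far-end tile chr14:21983001-21984000 averaged 2.18% ± 2.03 in arsenic libraries and 9.17% ± 5.94 in control libraries (SD, n = 5 each, adjusted p 0.808 in the quasi-binomial model). Zfp703, amplified in some human breast cancers, was low as well, with ends at 4.42% ± 1.35 in arsenic libraries and 4.56% ± 1.42 in control libraries (SD, n = 5 each).

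The start tiles of Zfp281 and Zfp148 were low. Zfp281, a regulator of pluripotent cells, had ends at 0.611% ± 0.549 in arsenic libraries and 1.05% ± 0.837 in control libraries, and Zfp148, a GC-box binding factor, at 2.62% ± 2.27 in arsenic libraries and 1.54% ± 0.804 in control libraries (SD, n = 5 each). Zfp423, which acts in cerebellar and fat cell development, had 51 body tiles at 71.4% ± 0.391 in arsenic libraries and 70.7% ± 0.453 in control libraries, and 5 end tiles at 7.67% ± 3.66 in arsenic libraries and 8.69% ± 1.79 in control libraries (SD, n = 5 each). Zfp536, a regulator of neuronal differentiation, had 52 body tiles at 64.5% ± 0.448 in arsenic libraries and 65.1% ± 0.709 in control libraries (SD, n = 5 each). Zfp217, whose human counterpart is amplified in cancers, had 2 far-end tiles alone as ends, at 94.8% ± 3.22 in arsenic libraries and 92.8% ± 1.44 in control libraries (SD, n = 5 each). The remaining regulators, Zfp143, Zfp335, Zfp462, Zfp521, Zfp750, Zfp407, Zfp516, Zfp64, Zfp207 and Zfp131, had end means from 0.448% to 59.7% in arsenic libraries and from 0.657% to 61.1% in control libraries, and Zfp106 had 3 body tiles alone. Zfp36, the CCCH gene, had 4 end tiles at 4.68% ± 0.985 in arsenic libraries and 5.57% ± 1.78 in control libraries (SD, n = 5 each), none with an unadjusted p under 0.05.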

How the data were processed

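Reduced representation bisulfite libraries of testis, 5 from the arsenic group and 5 from the control group, were analysed from 1 table. Per the submitters' processing notes the tools named are methylKit 1.22.0, Bismark 0.22.3 and Trim Galore 0.6.5, and the build is mm10. Settings are not given in the labels. The deposited table holds read counts, as the authors united them: coverage, methylated and unmethylated reads per cytosine and library, for 1988759 cytosines, each with at least 10 reads in every library. Such uniting leaves out any site that 1 library lacks. Both strands of a CpG are separate cytosines.

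Counts were summed in 1 kb tiles, and a tile level is methylated over all reads, in percent. Zfp tiles drew 644030 reads (control 4) to 958541 reads (arsenic 3) per library, with medians of 30.0 to 44.6 reads per cytosine. These totals are summed over cytosines, so a read is counted at each cytosine it covers. Without molecular identifiers, PCR copies cannot be told from molecules. A limit set from a zero count (3 counts over the summed counts) covers counting error alone. It takes every count as a separate read and is therefore too low. Class means weigh tiles equally. They were compared between groups by exact permutation tests and within libraries by exact sign-flip tests, both two-sided, adjusted by Benjamini-Hochberg. Tiles were tested by quasi-binomial logistic regression with dispersion squeezed as in limma 3.58.1 (R 4.3.3, Python 3.11.15, numpy 2.4.6, scipy 1.17.1, pandas 2.3.3), adjusted over all tiles, after a check on simulated data.

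The genes and lists were chosen with earlier results of these data known. Named tiles were the 3 end and 3 body tiles with the smallest p in each direction, the 5 highest end tiles, the 3 lowest end tiles with at least 10 CpGs and the 5 lowest body tiles, every measured member of 4 lists of genes with known roles, and every cluster as means. Gene boundaries and promoters came from RefSeq tables for GRCm38.p6, without exons or proteins, so exon, intron and protein features were not analysed here. Every pair of libraries differed by more than the sampling noise of counts taken as separate reads (mean chi-square per tile of 5.79 or more). Cytosines on the same fragment share reads, which raises that value, and this part was not separated. Alternatives were coverage, CpG number, weighting, end width, cluster gap, other test models, leaving out libraries and a replicate block.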

Additional observations from a re-analysis of the deposited data

Results flagged for a closer look

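In groups of 5 libraries, 1 library stood apart from the other 4 by Dixon's criterion in 16 of 180 groups examined, and chance alone flags about 1 group in 20. No cause was tested.

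Among end tiles of the listed genes, the arsenic libraries that stood high were arsenic 2 at Zfp568 (22.8%, against 2.14% to 2.98% in the other 4) and arsenic 5 at Zfp423 (14.1%, against 5.42% to 7.17%), Zfp207 (10.7%, against 0.678% to 3.58%) and Zfp462 (2.26%, against 0.242% to 0.617%). The control libraries that stood high were control 2 at Zfp445 (13.6%, against 0.171% to 2.73%) and Zfp143 (4.36%, against 1.80% to 2.40%) and control 5 at Zfp462 (9.54%, against 0.245% to 0.859%) and Zfp503 (10.1%, against 4.16% to 5.41%). Control 1 stood high at Zfp318 (5.54%, against 0.424% to 0.877%) and low at Zfp407 (45.8%, against 47.6% to 48.1%), and control 4 stood high at Zfp521 (2.10%, against 0.877% to 1.06%). In the start tile of Zfp523 control 2 had 0.325% while the other 4 controls had no methylated read, so this flag lies near the floor.

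In gene bodies, arsenic 3 was low at Zfp318 (93.9%, against 97.5% to 99.0%), arsenic 4 was low at Zfp106 (82.0%, against at least 89.1%) and arsenic 2 was high in a Zfp13 tile (3.38%, against 0.605% to 0.747%). Control 5 was high over the bodies of Zfp423 (71.5%, against 70.4% to 70.7%).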

How the results depend on the processing

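Of the comparisons between arsenic and control, all kept their direction under the alternatives run. The clustered body difference passed 0.05 without control 1 (range −0.625 to −0.378 over libraries left out in turn). The binomial test, which takes reads as replicates, called 7 Zfp tiles, gave 589 with an unadjusted p under 0.05 in place of 85, and called Zfp977 at −15.2 points. Its share over all tiles is not given, so these counts have no background. Within libraries, end minus body, start minus far end, Zfp minus other bodies and clustered minus single starts kept their sign and call. Contrasts of start and far-end tiles were not rerun at other coverage, CpG numbers, end widths or cluster gaps. Zfp minus other ends turned to 0.682 with equal weight per cytosine and 0.803 at 10 or more CpGs, and clustered minus single ends to 1.69 and 4.13. Clustered minus single bodies turned to 2.97 at 20 or more reads, and far ends to 3.01 without tiles near another gene's end. The end-minus-body gap between arrangements turned to 2.57 at 5 or more CpGs, 8.46 at 10 or more, 8.18 with equal weight per cytosine, 0.0737 (p = 0.717, exact permutation) with gaps of at most 250 kb and 0.570 without 3 genes, and was −0.0935 without tiles near another gene's end. The causes were not tested. Same-numbered libraries did not deviate together (correlations −0.0126 to 0.0167), and neither did the others (−0.0193 to 0.0168). The labels do not say whether the numbers pair libraries, and these correlations cannot exclude it. With a replicate block, end tiles gave exact permutation p = 0.0625, the smallest possible, clustered bodies p = 0.125, and 0 tiles were called. The settings for controls 4 and 5 in within-library tests and for start and far-end tiles, and those without the 3 genes, were chosen after seeing the data. Depth limits single tiles, as at Zfp940 with 69 counts over 5 cytosines in control 4.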
